A study of Mus musculus with 111 samples.

Results

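The mRNAs described here encode the interleukin-6 family: the ligands Il6, Lif, Osm and Il11, the receptor chains Il6ra, Osmr, Lifr and Il6st, and the feedback inhibitor Socs3. These 9 genes were named from known biology, with earlier results of these data known, so counts over them are descriptions. They were taken from 15707 genes measured in whole mouse lung, each through probesets annotated to that gene alone. All 9 were represented, by 20 such probesets in total. Male C57BL6/J mice were 7 to 9 weeks old when purchased. They were dosed once through the trachea with bleomycin, a DNA-cleaving antibiotic (2 U/kg in 50 µl), or with 50 µl of saline. Lungs were taken on days 1 and 2 and then weekly from day 7 to day 35. Of the resulting 14 groups 13 held 8 mice and saline day 14 held 7. Each array (56 bleomycin, 55 saline) measured 1 mouse, and the bleomycin and saline mice shared strain, sex, age range at purchase and route.

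Cytokines of this family share the signal-transducing receptor chain gp130, encoded by Il6st. Il6 binds its own alpha chain (Il6ra) before it engages gp130, whereas Lif and oncostatin M (Osm) bring gp130 together with Lifr or Osmr, and Il11 uses a separate alpha chain. Receptor-bound Janus kinases then activate STAT3, and Socs3, whose transcription STAT3 drives, binds gp130 and the kinases and dampens the signal. In the lung the family is known for the acute phase response, neutrophil clearance and the activation of epithelial cells and fibroblasts.

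Sequences upstream of the annotated start are shown for Il6 and Lif, the ligands with the largest increases, and around a STAT match for Socs3, the inhibitor that STAT3 induces. RefSeq (GRCm38.p6) gave a start for 8 of the 9 genes, and Osm had no entry. Each of the first 2 sequences below is the 250 bases before the start, chr5:30012864-30013113 (plus strand) for Il6 and chr11:4257318-4257567 (plus strand) for Lif, and the third is 30 bases of the Socs3 upstream region, chr11:117969501-117969530 (minus strand). Capitals mark matches, on either strand, to the letters TTCNNNGAA (STAT), GGGA followed by any base and TTTCC (NF-kB), TGANTCA (AP-1) and TTNNGCAA (C/EBP), none of which overlap here.
Il6: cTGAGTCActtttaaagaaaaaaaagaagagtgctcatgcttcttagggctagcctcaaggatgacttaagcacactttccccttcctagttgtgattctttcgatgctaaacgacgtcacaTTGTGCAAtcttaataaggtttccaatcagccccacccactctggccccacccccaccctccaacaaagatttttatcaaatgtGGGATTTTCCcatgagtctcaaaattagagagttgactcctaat
Lif: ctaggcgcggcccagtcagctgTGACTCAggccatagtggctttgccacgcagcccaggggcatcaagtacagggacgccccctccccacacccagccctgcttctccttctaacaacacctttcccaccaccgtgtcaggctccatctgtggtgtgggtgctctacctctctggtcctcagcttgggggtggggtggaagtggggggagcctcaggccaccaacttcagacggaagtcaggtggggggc
Socs3: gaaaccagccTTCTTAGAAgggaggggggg
The Il6 sequence held an AP-1 match 249 bases, a C/EBP match 128 bases and an NF-kB match 44 bases before the start. The Lif sequence held 1 AP-1 match 228 bases before the start. The STAT match of Socs3 began 154 bases before its start, and Socs3 was the 1 gene of the 8 with such a match. Of 32851 RefSeq upstream regions of the same length, 7.02% held the STAT letters, 0.356% the NF-kB letters, 6.75% the AP-1 letters and 9.56% the C/EBP letters. A match describes these letters and is not evidence of binding.

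Levels are the deposited log2 values, normalized across arrays by RMA, and each gene is followed through its most variable probeset. Array medians lay between 8.614 and 8.731. A few arrays stood apart from their own group. Bleomycin replicate 4 of day 21 had the lowest median correlation with its group (r = 0.984) and bleomycin replicate 3 of day 35 the next lowest (r = 0.9842), and the highest was 0.9959. Calls that change without either array are given below with the member. Il6, Il11 and Lifr were among the 30% dimmest genes. Within each day the treatments were compared with limma, whose linear model moderates the variance of a gene toward that of the others. Rose and fell are used of an adjusted p under 0.05 (Benjamini-Hochberg over 15707 genes). The lung was homogenized whole, so fewer cells of a type and less RNA per cell cannot be told apart.

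Bleomycin raised the ligands, Osmr and Socs3, while, through the most variable probesets, Il6ra fell from day 7 onwards and Il6st rose on days 1 and 2. On day 1, 5 of the 9 genes rose (Il6, Lif, Osmr, Il6st and Socs3), against 14.7% of all genes. On day 2 Osm and Il11 joined them, making 7 of 9 against 14.2% of all genes. Through these probesets no member fell on days 1 and 2 by limma, by the ordinary contrast without moderation or at an unadjusted p under 0.05 (0 of 9 in each). Of all genes, 16.7% and 13.1% fell by limma. At an unadjusted p under 0.05, 3440 and 2910 of the 15707 genes were lower. On days 7 and 14 all 4 ligands, Osmr and Socs3 rose, 6 of 9 against 25.7% and 21.9% of all genes, and Il6ra was the 1 that fell, against 21.9% and 19.7%. On day 21, 4 genes rose (Il6, Lif, Osmr and Socs3) against 20.5% of all genes, and Il6ra fell against 18.9%. On day 28, 3 genes rose (Lif, Osmr and Socs3) against 11.5%, and Il6ra fell against 11.8%. On day 35, 4 genes rose (Lif, Osm, Osmr and Socs3) against 16.9%, and Il6ra and Lifr fell against 12.5%.

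A stricter count asks for groups without overlap. Every bleomycin mouse lay above every saline mouse for Osmr and Socs3 on day 1 (1.36% of all genes), for Lif, Il11, Osmr and Socs3 on days 7 and 14 (10.3% and 10%) and for Osmr on days 28 and 35 (2.13% and 3.95%). Every bleomycin mouse lay below every saline mouse for Il6ra on days 7, 14 and 28 (4.53%, 6.66% and 1.4%). Among genes that rose, Il6, Lif and Socs3 exceeded 2-fold on days 1, 2 and 14, against 0.376%, 0.949% and 2.41% of all genes, and Il11 joined them on day 7 (4 of 9 against 2.85%). On day 21 Il6 and Socs3 did so (2 of 9 against 1.14%). No member that rose on days 28 and 35 exceeded 2-fold, against 0.573% and 0.649% of all genes.

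**Figure D1:**
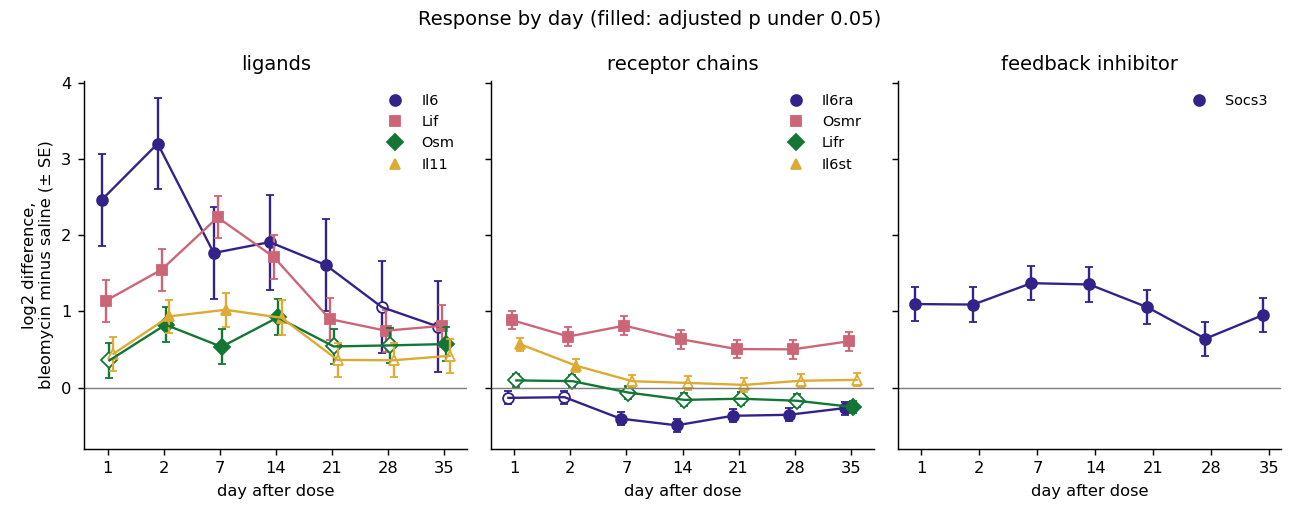
Log2 difference of bleomycin minus saline mice (vertical axis, with the standard error of limma) by day after the dose (horizontal axis, days equally spaced) for the ligands, the receptor chains and Socs3. Filled symbols had an adjusted p under 0.05. Il6 was highest on day 2 (3.20), Lif on day 7 (2.23), and Il6ra lay below 0 on each day.

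Il6, the cytokine that gives the family its name, showed the largest difference of the 9 on a single day. On day 1 the 8 saline mice ran from 4.11 through a median of 5.06 to 5.77, and the 8 bleomycin mice from 5.33 through 7.52 to 9.71. Bleomycin exceeded saline by 2.46 ± 0.60 (log2 difference ± SE, 5.51-fold, adjusted p = 0.000887), the fifth largest increase among all genes (rank 5), and 7 of the 8 exceeded the highest saline value. On day 2 the difference was 3.20 ± 0.60 (9.20-fold, adjusted p = 1.526e-05, rank 4 of all genes). The day 2 mice were divided: 6 bleomycin mice lay between 7.11 and 10.04, while replicates 5 and 8 read 4.92 and 4.31, inside the saline range of 3.69 to 5.58. The spread of the bleomycin mice on that day was 3.65 times that of the saline mice (SD 2.29 against 0.63, n = 8 each).

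Il6 remained raised at lower values on later days. The difference was 1.77 ± 0.60 on day 7 (adjusted p = 0.0109) and 1.91 ± 0.62 on day 14 (adjusted p = 0.00913). On day 7 the 8 bleomycin mice lay between 6.34 and 8.26, with a spread (SD 0.63) below that of the saline mice (SD 0.71), in contrast to day 2. On day 21 the difference was 1.61 ± 0.60 (adjusted p = 0.0257), and the bleomycin mice ran from 4.88 to 9.97. Without bleomycin replicate 7 it was 1.20 (adjusted p = 0.118) and without replicate 3 it was 1.33 (adjusted p = 0.0859), so the call of day 21 rested on these mice. On days 28 and 35 the differences of 1.05 ± 0.60 and 0.80 ± 0.60 did not pass the test (adjusted p = 0.207 and 0.344). They were 0.41 without replicate 8 of day 28 and 0.34 without replicate 3 of day 35 (adjusted p = 0.691 and 0.741). The median bleomycin mouse of day 28 read 5.21 and the median saline mouse 4.96, while bleomycin replicate 8 read 10.58, the highest Il6 level on any array.

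Lif, leukemia inhibitory factor, had its largest difference on day 7 and Il6 on day 2, but neither gene changed between days 1 and 2 and days 7 and 14 by a test that passed (adjusted p = 0.0664 and 0.203). Lif rose on each of the 7 days, by 1.14 ± 0.28 on day 1, 1.55 ± 0.28 on day 2, 2.23 ± 0.28 on day 7 and 1.71 ± 0.29 on day 14. On day 7 the saline mice ran from 7.55 through a median of 7.77 to 8.02 and the bleomycin mice from 8.85 through 10.15 to 10.52 (4.70-fold, adjusted p = 4.131e-11). Neither on day 7 nor on day 14 (saline 7.92 to 8.47, bleomycin 9.10 to 10.16) did the groups overlap. From day 21 the differences were 0.90, 0.75 and 0.81 (SE 0.28 each, adjusted p = 0.00599, 0.0386 and 0.0188). Those of days 28 and 35 depended on single mice: without replicate 8 of day 28 the difference was 0.53 (adjusted p = 0.179), without replicate 5 of that day 0.70 (adjusted p = 0.0734), without replicate 3 of day 35 it was 0.60 (adjusted p = 0.1003) and without replicate 8 of day 35 it was 0.68 (adjusted p = 0.06). The second Lif probeset, which was dimmer (mean level 5.98), showed smaller differences of the same direction. It passed on days 2, 7, 14 and 35 but not on days 1, 21 and 28 (adjusted p = 0.181, 0.147 and 0.133).

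Osm and Il11 showed smaller differences. Osm, a product of neutrophils and macrophages, rose by 0.82 ± 0.23 on day 2 (adjusted p = 0.00349) and by 0.92 ± 0.24 on day 14 (adjusted p = 0.000837). On day 2 the saline mice lay between 7.19 and 7.57, and 6 of the 8 bleomycin mice lay above that range, up to 8.97. The differences of days 7 and 35 (0.53 ± 0.23 and 0.57 ± 0.23, adjusted p = 0.0453 and 0.0483) lay close to the threshold, and those of days 21 and 28 (0.54 ± 0.23 and 0.55 ± 0.23, adjusted p = 0.0507 and 0.0665) just beyond it. Without replicate 4 of day 21, the array that stood apart, Osm passed on that day (0.66, adjusted p = 0.0156), whereas without replicate 7 or replicate 3 the difference was 0.40 or 0.44 (adjusted p = 0.181 and 0.137). On day 7 leaving out any of 5 bleomycin mice, and on day 35 any of 4, ended the call (adjusted p up to 0.116 and 0.225). Saline mice also held high Osm: saline replicate 5 of day 7 read 8.92, above every bleomycin mouse of that day, and saline replicates 6 and 7 of day 21 read 8.54 and 8.24. The mean level of 7 neutrophil markers was highest of the saline group in the first of these (11.15) and highest and next highest in the others (11.421 and 11.105). Bleomycin mice went both ways. Replicate 4 of day 21 was highest of its group in these markers (10.628) and lowest in Osm. Replicate 3 of day 35 was lowest in the markers (8.2219) and highest in Osm, while replicate 8 of day 28 was highest in both. The part of neutrophils in the Osm levels was not tested.

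Il11, a cytokine studied for its action on fibroblasts, rose on days 2, 7 and 14, by 0.93 ± 0.22, 1.02 ± 0.22 and 0.92 ± 0.23. On day 7 the bleomycin mice (7.04 to 7.91) lay above the saline mice (6.19 to 6.99) without overlap (2.03-fold, adjusted p = 5.555e-05), and on day 14 as well (7.07 to 8.29 against 6.37 to 6.80). From day 21 the differences were between 0.36 and 0.42 and did not pass the test (adjusted p = 0.192, 0.250 and 0.154). On day 28 the contrast among mice was large. Bleomycin replicate 8 read 9.72, while the other 7 lay between 6.51 and 6.88, within or below the saline range of 6.58 to 7.02. Without it the Il11 difference of day 28 was -0.02 (adjusted p = 0.965), without replicate 7 of day 21 it was 0.24 (adjusted p = 0.448), and without replicate 3 of day 35 it was 0.26 (adjusted p = 0.440).

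**Figure D2:**
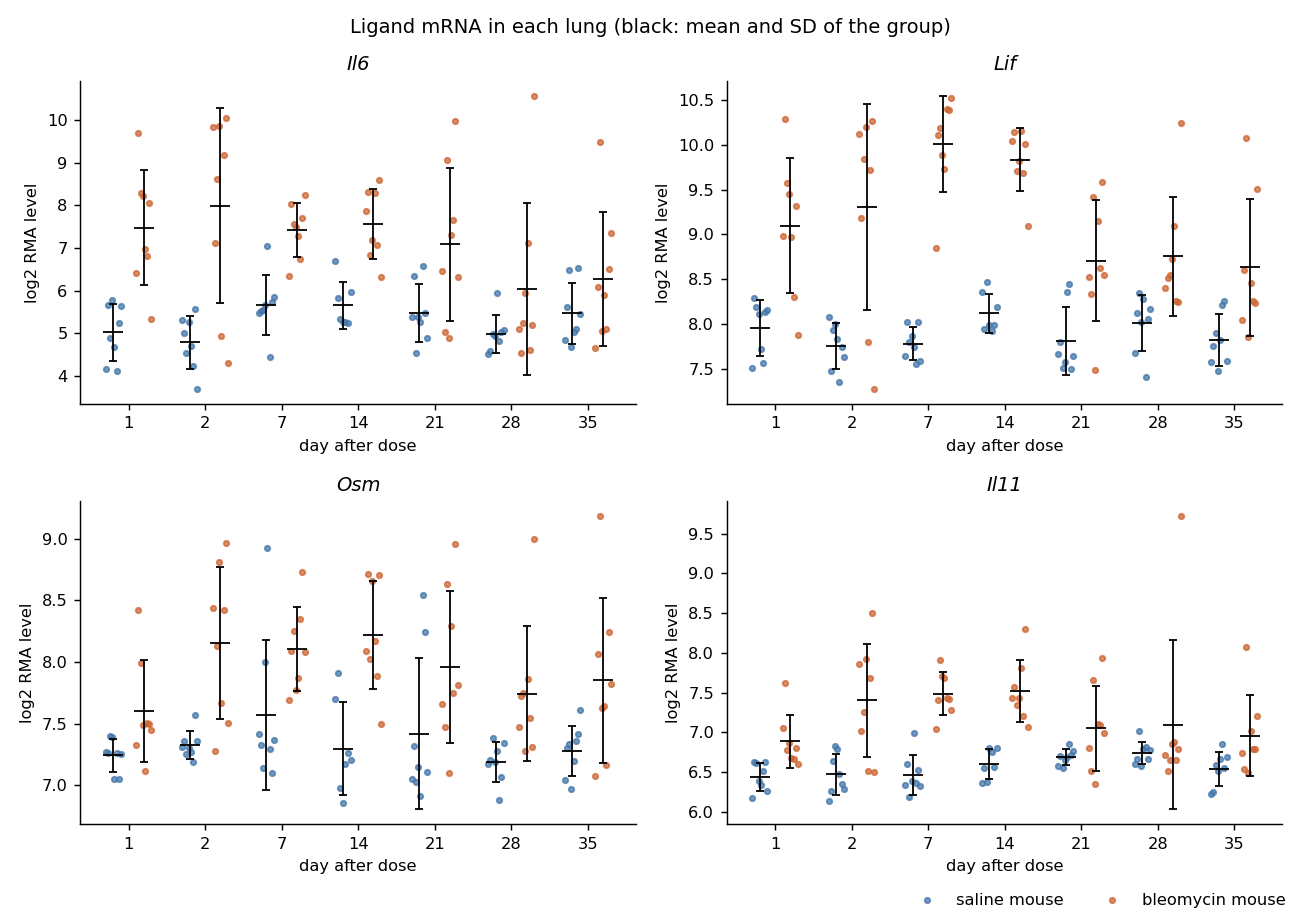
Level of Il6, Lif, Osm and Il11 (vertical axis, log2 RMA level) in each mouse by day after the dose (horizontal axis), saline in blue and bleomycin in orange, with the mean and SD of each group in black. The day 2 bleomycin mice divide into 6 high and 2 low in Il6 and Lif, the groups of days 7 and 14 do not overlap for Lif and Il11, and 1 mouse of day 28 stands high in each panel.

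The receptor chains did not move together. Osmr, the oncostatin M receptor chain, rose on each of the 7 days, by 0.88 ± 0.12 on day 1, 0.67 ± 0.12 on day 2, 0.81 ± 0.12 on day 7, 0.63 ± 0.13 on day 14, and between 0.50 and 0.61 from day 21. The groups were separate on 5 of the 7 days, with 9.34 to 10.02 in bleomycin against 8.66 to 9.20 in saline mice on day 7. A second, brighter Osmr probeset (mean level 12.10) gave smaller differences of 0.44 on day 1 and 0.58 on day 7, and passed on all 7 days. The third, dimmer Osmr probeset (mean level 7.68) passed on 5 days. It did not pass on days 28 and 35 (0.30 and 0.29, adjusted p = 0.0686 and 0.0609).

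Il6ra, the chain specific to Il6, moved the other way. Its difference was -0.14 ± 0.09 on day 1 and -0.13 ± 0.09 on day 2 (adjusted p = 0.229 and 0.292), then it fell by 0.41 on day 7, 0.50 on day 14, 0.37 on day 21, 0.36 on day 28 and 0.27 on day 35 (SE 0.09 each). On day 14 the bleomycin mice ran from 10.40 through a median of 10.61 to 10.97 and the saline mice from 10.98 through 11.18 to 11.29 (1.41-fold lower, adjusted p = 2.296e-06). The groups did not overlap on that day. The fall of day 35 did not pass without bleomycin replicate 3 (-0.18, adjusted p = 0.101). A dimmer Il6ra probeset (mean level 7.54) went the opposite way on day 1, where it passed (0.26, adjusted p = 0.0168). It was lower on days 7 and 14 (-0.24 and -0.28, adjusted p = 0.0161 and 0.00891), and its differences of -0.18, -0.12 and -0.06 on days 21, 28 and 35 did not pass (adjusted p = 0.0988, 0.347 and 0.662). The fall of Il6ra after day 14 therefore rests on 1 of its 2 probesets.

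Lifr, the leukemia inhibitory factor receptor, depended on the probeset. The most variable probeset was dim (mean level 6.67), and through it Lifr fell on day 35 alone (by 0.25 ± 0.08, adjusted p = 0.0128), and on day 21 as well without replicate 4 (-0.21, adjusted p = 0.0327). Through the probeset with the highest level (mean 12.72) Lifr fell on 5 days, by 0.35 on day 7, 0.31 on day 14, 0.22 on day 21, 0.24 on day 28 and 0.30 on day 35 (SE 0.06 each, adjusted p between 1.332e-06 and 0.00295). With that probeset the saline mice of day 7 lay between 12.844 and 12.983 and the bleomycin mice between 12.372 and 12.659, and on day 14 the groups were again separate (12.874 to 13.022 against 12.505 to 12.717). On days 1 and 2 both of these probesets gave differences under 0.10 in size that did not pass. The third Lifr probeset (mean level 8.67) gave -0.13 on day 1 (adjusted p = 0.122) and -0.16 on day 2, which passed narrowly (adjusted p = 0.0484). It did not pass on days 7 and 14 (-0.10 and -0.14, adjusted p = 0.184 and 0.088) and was lower on days 21, 28 and 35 (-0.21, -0.27 and -0.22, adjusted p between 0.00119 and 0.00581).

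Il6st, which encodes gp130, rose on days 1 and 2 by 0.57 ± 0.09 and 0.29 ± 0.09 (adjusted p = 3.552e-07 and 0.00814), and its later differences, between 0.03 and 0.10, did not pass. The day 1 rise was measured against a low saline group: the saline mice of day 1 averaged 8.46 ± 0.20 (SD, n = 8), while the saline means of the other days lay between 8.90 and 9.16. The bleomycin mice of day 1 averaged 9.03 ± 0.24. With all 55 saline mice as the control the day 1 difference was 0.09 ± 0.09 (adjusted p = 0.489), and that of day 2 was 0.51 ± 0.09 (adjusted p = 5.387e-07). The saline level differed among days for Il6ra, Osmr and Il6st (3 of 9, against 54.1% of all genes, adjusted p = 0.0128, 0.00304 and 2.474e-09). Osmr was likewise lowest in saline mice on day 1 (8.38 ± 0.14), and it kept its call there with all saline mice as control (0.55 ± 0.10, adjusted p = 1.285e-05). The brightest Il6st probeset went from small rises on days 1 and 2 (0.08 and 0.10) to falls of 0.11 on day 21 and 0.10 on day 28 (adjusted p = 0.000102 and 0.00251), whereas a second probeset gave 0.16 and 0.21 on those days, so no direction is given for Il6st after day 2.

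**Figure D3:**
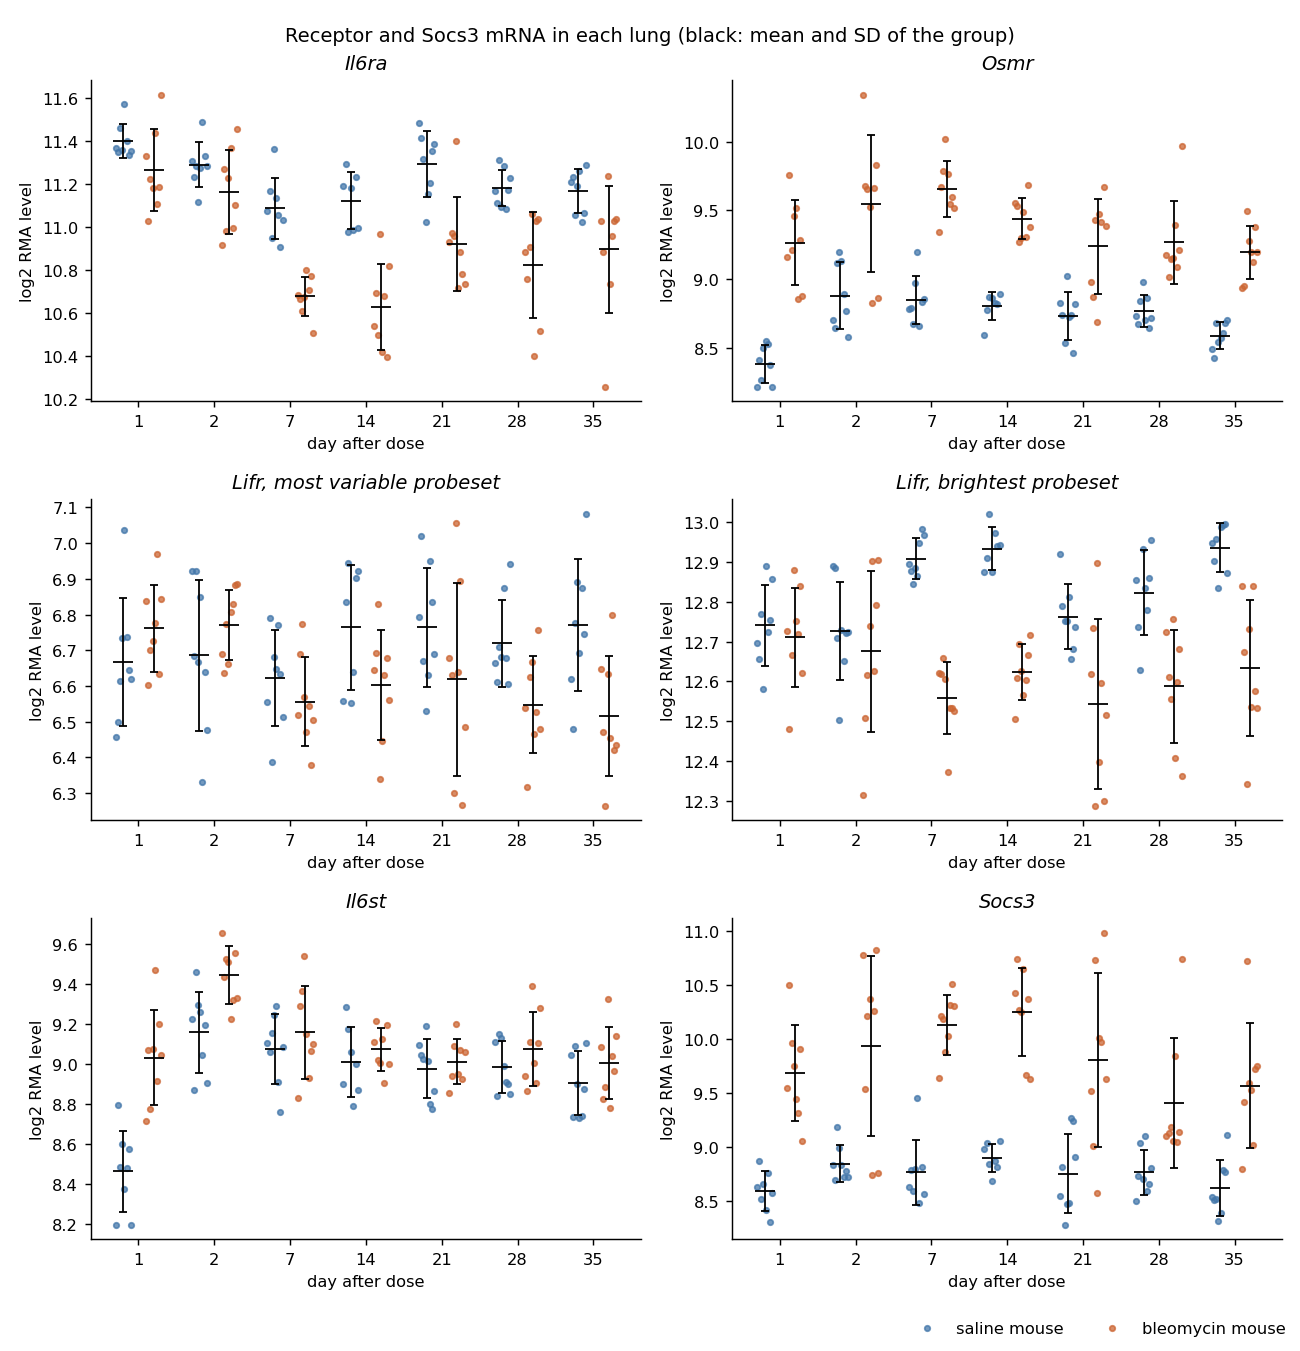
Level of the receptor chains and Socs3 (vertical axis, log2 RMA level) in each mouse by day after the dose (horizontal axis), saline in blue and bleomycin in orange, with the mean and SD of each group in black. Osmr and Socs3 lie higher in bleomycin mice and Il6ra lower from day 7, Lifr is shown through its most variable and its brightest probeset, and saline Il6st is lowest on day 1 (mean 8.46).

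Socs3, the feedback inhibitor of gp130 signaling, rose on each of the 7 days. The difference was 1.10 ± 0.23 on day 1, 1.09 ± 0.23 on day 2, 1.37 ± 0.23 on day 7, 1.35 ± 0.23 on day 14, 1.05 ± 0.23 on day 21, 0.64 ± 0.23 on day 28 and 0.95 ± 0.23 on day 35. On day 7 the saline mice ran from 8.48 through a median of 8.71 to 9.45 and the bleomycin mice from 9.63 through 10.20 to 10.51 (2.59-fold, adjusted p = 2.14e-07). The groups were also separate on day 1 (8.30 to 8.87 against 9.05 to 10.498) and day 14 (8.69 to 9.06 against 9.63 to 10.74). On day 28 the median bleomycin mouse read 9.14 against 8.71 in saline, and without replicate 8 or replicate 5 the difference of that day did not pass (0.45 and 0.58, adjusted p = 0.158 and 0.0677). The other Socs3 probesets followed the one used closely (r = 0.9804 and 0.9847 over all arrays).

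The response itself differed among the 7 days for 4 of the 9 genes, Lif, Il6ra, Lifr and Il6st (adjusted p = 0.00449, 0.0492, 0.0454 and 0.00104, limma F test), against 48% of all genes. Il6ra did not pass when the values were quantile normalized again or tested without moderation, and Lifr did not pass with the replicate block, with array weights or without replicate 3 of day 35. Averaged over periods, the Il6 response was 2.83 on days 1 and 2, 1.84 on days 7 and 14 and 1.15 on days 21 to 35, and the last was lower than the first by 1.68 ± 0.55 (adjusted p = 0.0144). The Lif response went from 1.34 to 1.97 and then to 0.82, and the drop from days 7 and 14 to days 21 to 35 was -1.16 ± 0.26 (adjusted p = 0.000232). Il11 also dropped between these periods (-0.59 ± 0.20, adjusted p = 0.0221), making 2 of 9 genes against 14.9% of all genes. The F test among the 7 days did not pass for Il6 or Il11 (adjusted p = 0.158 and 0.151). From the first to the last period Il6, Il6ra, Lifr and Il6st became lower, 4 of 9 against 12.2%. For Socs3 the period means were 1.09, 1.36 and 0.88, and its differences between periods did not pass (adjusted p between 0.0772 and 0.483). Il6ra, Lifr and Il6st became lower from days 1 and 2 to days 7 and 14, 3 of 9 against 15.8%. These counts between periods use the most variable probesets, and that of Lifr was dim. The early Il6st response included day 1, measured against a low saline group.

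Individual bleomycin mice differed widely, and the ligands and Socs3 tended to be high in the same animals. On days 1, 2, 21, 28 and 35 a single bleomycin mouse held the highest level of all 4 ligands: replicate 2, 7, 7, 8 and 3, in that order. That mouse was also the highest in Socs3 on each of the 5 days, and the highest in Osmr on those days except day 2, where it ranked 2. On days 7, 14 and 21 a single mouse was the lowest in all 4 ligands and in Socs3 (replicate 1, 8 and 4). Replicate 8 of day 28 read 10.58 in Il6, 10.24 in Lif, 9.002 in Osm, 9.72 in Il11, 9.97 in Osmr and 10.75 in Socs3, and the next highest mouse of that group 7.12, 9.10, 7.86, 6.88, 9.39 and 9.84. Replicate 3 of day 35, whose array stood apart, read 9.48 in Il6, 10.08 in Lif, 9.18 in Osm, 8.08 in Il11 and 10.72 in Socs3, and it was the lowest of its group in Il6ra (10.26) and Lifr (6.27).

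**Figure D4:**
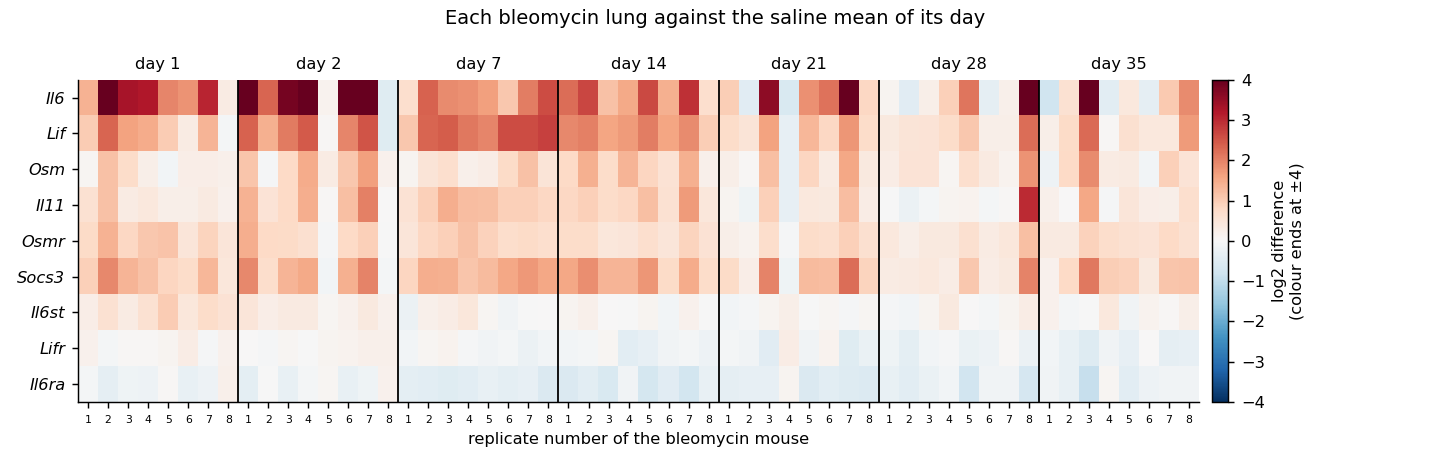
Log2 difference of each of the 56 bleomycin mice from the saline mean of its day (color, ending at ±4, which the highest Il6 differences exceed) for the 9 genes (rows), with mice in columns by day and replicate number. Replicates 5 and 8 of day 2 and replicate 4 of day 21 are pale across the ligands. Replicate 8 of day 28 and replicate 3 of day 35 are the highest of their days in each ligand.

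Markers of other cells were measured in the same mice. The macrophage markers (9 genes) averaged 11.226 in replicate 8 of day 28, the highest of its group, and 11.139 in replicate 3 of day 35, the second of its group, where saline mice had 10.12 to 10.739 and 10.268 to 10.536. Above these ranges lay 6 of the 8 bleomycin mice on day 28 and all 8 on day 35. The fibroblast markers (8 genes) averaged 10.513 and 10.562 in these mice, against at most 10.367 and 10.258 in saline, but the highest of day 28 (10.589) was replicate 2, the lowest mouse of that group in Il6. The neutrophil markers were the highest of the group in the former (9.417) and the lowest in the latter (8.2219). In the low mice of day 2, replicates 5 and 8, the macrophage markers (10.49 and 10.597) and fibroblast markers (9.8704 and 10.01) were the lowest of the group, while their neutrophil markers (9.9954 and 10.936) ranked 4 and 1. The part of these cells in the levels of the family was not tested.

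Within the bleomycin mice of a day, each ligand was compared with Socs3 over 8 mice (4 ligands on 7 days, 28 relations, two-sided exact permutation tests adjusted over 28). On day 1 r was 0.957 for Il6 and 0.967 for Lif (rho 0.905 and 0.976, exact adjusted p of r = 0.00353 and 0.00081, of rho = 0.0116 and 0.00278), and without the 2 mice farthest from the median of the ligand r was 0.853 and 0.908. Over the 6 mice left, Lif passed and Il6 did not (exact permutation p = 0.00972 and 0.0806, not adjusted). On the same day r was 0.797 for Osm and 0.808 for Il11 (rho 0.643 and 0.762, exact adjusted p of r = 0.0236 and 0.0218, of rho = 0.122 and 0.0572), and without the 2 farthest mice 0.150 and 0.871, so the relation of Osm rested on those mice. On day 21 r was 0.984 for Il6, 0.958 for Lif, 0.966 for Osm and 0.990 for Il11 (rho 0.952, 1, 0.976 and 1, exact adjusted p at most 0.000868 for r and 0.00399 for rho), and without the 2 farthest mice it lay between 0.901 and 0.991. On day 7 Lif and Osm followed Socs3 (r = 0.916 and 0.907, rho 0.857 and 0.905, exact adjusted p of r = 0.00353 and 0.00446, of rho = 0.0231 and 0.0116, r = 0.849 and 0.864 without the 2 farthest), whereas Il6 and Il11 did not pass (r = 0.584 and 0.177, rho 0.5 and -0.071, exact adjusted p of r = 0.131 and 0.676, of rho = 0.224 and 0.882). Without the 2 farthest mice r was 0.521 for Il6 and -0.818 for Il11, the opposite direction. On day 14 r was 0.800 for Il6 and 0.882 for Lif (rho 0.786 and 0.952, exact adjusted p of r = 0.0218 and 0.00081, of rho = 0.0489 and 0.00399, r = 0.784 and 0.838 without the 2 farthest). Over the 6 mice left, Lif passed and Il6 did not (exact permutation p = 0.0111 and 0.0556, not adjusted). On the same day r was 0.711 for Osm and 0.615 for Il11 (rho 0.738 each, exact adjusted p of r = 0.0596 and 0.109, of rho = 0.0642 each), and 0.357 and 0.962 without the 2 farthest.

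On day 2 the bleomycin mice fell into 6 high and 2 low animals in Il6 and Lif, so no r over the 8 is given. Among the 6 mice other than replicates 5 and 8, a split made from the levels themselves, r was 0.940 for Il6, 0.926 for Lif, 0.877 for Osm and 0.871 for Il11 (rho 0.943, 0.886, 0.943 and 0.943, exact permutation p between 0.00417 and 0.0236 for r and at most 0.0333 for rho, not adjusted). Osm was not split in this way, since its lowest mouse was replicate 2 (7.28). Replicate 2 was also the lowest of the 6 in the other ligands and in Socs3. Its Socs3 difference from the saline mean was 0.69, against 1.37 to 1.98 in the others of the 6. The relations without replicate 2 as well were not tested. On day 28 r over 8 mice was 0.969 for Il6 and 0.965 for Lif (rho 0.667 and 0.595, exact adjusted p of r = 0.0173 and 0.0162, of rho = 0.111 and 0.161), but -0.143 and -0.030 without the 2 farthest mice, so these relations rested on those mice. For Osm and Il11 on day 28 r was 0.942 and 0.919 (rho 0.762 and 0.571, exact adjusted p of r = 0.00482 and 0.0236, of rho = 0.0572 and 0.176), and 0.640 and 0.561 without the 2 farthest. Over the 6 mice left, neither passed (exact permutation p = 0.197 and 0.218, not adjusted). On day 35 r was 0.925 for Il6 and 0.782 for Lif (rho 0.833 and 0.524, exact adjusted p of r = 0.00353 and 0.0274, of rho = 0.0308 and 0.212), and 0.751 and 0.147 without the 2 farthest. For Osm and Il11 on day 35 r was 0.942 and 0.790 (rho 0.786 and 0.548, exact adjusted p of r = 0.00446 and 0.0452, of rho = 0.0489 and 0.192), and 0.727 and -0.070 without the 2 farthest. The relations of Lif and Il11 on day 35 thus rested on those mice. Over the 6 mice left, those of Il6 and Osm did not pass either (exact permutation p = 0.1 and 0.111, not adjusted). Both genes of a pair were read on the same array from the same tissue, and the part of cell composition in these relations was not tested.

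Genes whose level most resembled each member over all arrays were listed by Pearson's r, as a description in which treatment and day are shared. Socs3 was closest to Bcl3 (0.9464), an NF-kB cofactor, Sbno2 (0.946) and Adamts4 (0.9259), a matrix protease. Socs3 in turn was among the 3 closest genes of Il6 (0.8895), Osm (0.8572) and Il11 (0.8457). Ch25h, which makes an oxysterol from cholesterol, led for Il6 (0.9058) and Adamts4 for Il11 (0.8499). Lif was closest to Timp1 (0.956), the tissue inhibitor of metalloproteases, and Osmr to B4galt5 (0.9255). Il6st was closest to Sec24b (0.8545), Il6ra to Nrxn2 (0.8643), and Lifr reached no more than 0.6655 (Hsd11b1).

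The counts of the next lists are read against the share of all genes that rose (14.7%, 14.2%, 25.7%, 21.9%, 20.5%, 11.5% and 16.9% on the 7 days in order) and fell (16.7%, 13.1%, 21.9%, 19.7%, 18.9%, 11.8% and 12.5%). Of 11 measured kinases, STATs, adaptors and shedding proteases, 5, 4, 5, 4, 3, 3 and 3 rose on the 7 days in order, and 0 fell by limma (0 to 1 at an unadjusted p under 0.05), and 3 of 11 on day 21 is close to the 20.5% of all genes. On day 2 the kinase Jak2 rose by 0.33 ± 0.07 and Stat3, the main transcription factor of the pathway, by 0.29 ± 0.09. On day 7 Jak2 rose by 0.54 ± 0.07 and Adam10, a protease that sheds Il6ra, by 0.40 ± 0.09, and on day 35 Adam10 (0.30 ± 0.09) and Adam17 (0.20 ± 0.05) led. The median difference of the 11 genes was 0.20 on day 2 and 0.10 on day 7, against -0.01 over all genes on both days.

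Of 13 genes listed as STAT3 targets, 9, 11, 9, 8, 8, 5 and 9 rose on the 7 days in order (against 11.5% to 25.7% of all genes) and 0 fell (0 on each day at an unadjusted p under 0.05), with a median difference of 0.43 on day 2 and 0.37 on day 7. Timp1 led on day 2 (2.44 ± 0.36), day 7 (3.29 ± 0.36) and day 35 (1.24 ± 0.36), followed by Bcl3 on days 2 and 35 (0.79 ± 0.16 and 0.74 ± 0.16) and by Myc on day 7 (1.44 ± 0.16). Many of these genes also answer to other pathways. Of 14 acute phase genes 8, 8, 8, 7, 8, 5 and 6 rose against the same shares, and at most 1 fell on any day (against 11.8% to 21.9%). Saa3, a serum amyloid A made in the lung, rose by 3.95 ± 0.51 on day 2, 3.49 ± 0.51 on day 7 and 2.06 ± 0.51 on day 35, with the orosomucoid genes Orm2 on day 2 (2.32 ± 0.39) and Orm1 on days 7 and 35 (2.36 ± 0.47 and 1.43 ± 0.47). Itih4, an inter-alpha-trypsin inhibitor chain, fell by 0.71 on day 7 and by 0.53 on day 35. The 2 lists were highest of the group in the mouse that led the ligands on days 1, 28 and 35, and lowest in replicate 5 of day 2 and replicate 4 of day 21. Other mice departed from this. The mouse that led the ligands ranked 2 in both lists on day 2, and 2 in the acute phase genes on day 21. Replicate 8 of day 14, lowest in all 4 ligands, was lowest in the STAT3 targets (10.702) but ranked 2 in the acute phase genes (10.166).

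Among 7 other inhibitors of the pathway, 4, 4, 3, 2, 2, 1 and 2 rose and 1, 1, 2, 2, 1, 0 and 0 fell. Several of these counts are near the share of all genes, such as 2 of 7 rising and 2 of 7 falling on day 14 (21.9% and 19.7%) and 1 of 7 rising on day 28 (11.5%). Ptpn2, a phosphatase that acts on Janus kinases and STATs, rose by 0.52 ± 0.13 on day 2, 0.86 ± 0.13 on day 7 and 0.50 ± 0.13 on day 35. Its relative Ptpn1 rose by 0.28 ± 0.07, 0.52 ± 0.07 and 0.27 ± 0.07 on the same days. Socs2 and the STAT inhibitor Pias1 fell on day 7 by 0.55 and 0.26, unlike Socs3. Of 7 other family ligands and receptors at most 1 rose and at most 2 fell on any day, against 11.5% to 25.7% and 11.8% to 21.9% of all genes: Ebi3, a subunit shared by interleukin-27, rose by 0.35 ± 0.10 on day 7, while Cntfr, the ciliary neurotrophic factor receptor, fell by 0.55 on day 7 and 0.46 on day 35, and the ligand Clcf1 fell by 0.36 on day 2 and 0.58 on day 35. The Il11 alpha chain was not analysed here.

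Cell markers of the whole lung were counted on the same days, against all genes of which 14.2% rose and 13.1% fell on day 2, 25.7% and 21.9% on day 7, and 16.9% and 12.5% on day 35. Of 9 macrophage markers 3 rose and 1 fell on day 2, 7 rose and 1 fell on day 7 and 5 rose on day 35, and the mean level of the list on day 7 was 11.062 to 11.345 in bleomycin mice and 10.23 to 10.582 in saline mice. Of 7 neutrophil markers 1 rose on day 2, and 1 rose and 4 fell on day 7, when the mean ranges overlapped (8.6633 to 10.08 against 8.7282 to 11.15). Of 8 fibroblast markers 3 rose on day 2 and 5 on day 7, with 1 falling on each. Of 8 endothelial markers 7 fell and 1 rose on day 7 (mean 11.496 to 11.825 against 11.791 to 12.135). Of 9 epithelial markers 2 rose and 3 fell on that day, near the share of all genes. All 3 measured B cell markers fell on days 7, 14, 21 and 35. The epithelial markers averaged 13.389 to 13.446 in saline lungs of day 1, near the top of the array range of 2.746 to 14.69. The part of these cells in the family's levels was not tested.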

How the data were processed

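RNA of the left and right lungs of each mouse was amplified and run on Affymetrix mouse expression arrays. The authors remapped the probes (genome build not given in the sources used here), dropped non-unique or outdated probes, normalized by RMA and removed 1 saline array of day 14 after a principal component analysis. The deposited values are on a log2 scale. For arrays, the number of mice limits the precision.

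Of 32688 probesets, 27871 stood for 1 gene in the platform annotation, 314 for several and 4503 for none. Each of 15707 genes was represented by its single-gene probeset of highest variance. A model with 1 mean for each of 14 groups was fitted with limma 3.58.1 in R 4.3.3 (lmFit, eBayes), with contrasts of bleomycin minus saline within days, among days (F test) and between periods, and was tested on simulated data. P-values were adjusted by Benjamini-Hochberg within a contrast. The members and lists were chosen with earlier results of these data known, so counts over members or lists are descriptions. Named genes are the 9 members, the 3 genes most like each, and up to 2 with the largest increase and 2 with the largest decrease among called genes of each list on days 2, 7 and 35. No batch was given. Alternatives were other probesets, no dim genes, repeated quantile normalization, array medians subtracted, no moderation, 1 fit per day, all saline mice as control, array weights, the replicate number as a block and arrays left out, of which the leave-one-out of 56 bleomycin arrays and the array of day 21 were chosen after seeing the data.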

Additional observations from a re-analysis of the deposited data

Results flagged for a closer look

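The levels of each member in each of the 14 groups, 126 in all, were examined for a single mouse far from the rest, its gap to the nearest mouse being a larger share of the group's range than chance gives in about 1 of 20 groups. This marked 15 of the 126 (11.9%). Of these, 6 concern 1 animal, bleomycin replicate 8 of day 28, which lay above the next mouse in Il6 (10.58), Lif (10.24), Osm (9.002), Il11 (9.72), Osmr (9.97) and Socs3 (10.75). The other high mice were bleomycin replicate 2 of day 1 and replicate 3 of day 35 in Il11 (7.63 and 8.08), and bleomycin replicate 4 of day 21 in Il6ra (11.40). Low mice were bleomycin replicate 1 of day 7 and replicate 8 of day 14 in Lif (8.85 and 9.10). Among saline mice, replicate 5 of day 28 was high in Il6 (5.95), replicate 7 of day 2 in Osm (7.57) and replicate 5 of day 7 in Socs3 (9.45), and replicate 1 of day 14 was low in Osmr (8.59).

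The bleomycin response differed among the 7 days for Lif (adjusted p = 0.00449), Il6ra (0.0492), Lifr (0.0454) and Il6st (0.00104) by the limma F test of the difference itself. Lifr did not pass with the replicate block, nor Il6ra without moderation. For Il6st the saline level of day 1 was low (8.46).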

How the results depend on the processing

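Over the 63 pairs of a member and a day, 41 were called, and 35 of these kept the call under each alternative that gave a value, other than leaving out single mice in turn. Those that lost it were Il6 on day 21 and Osm on days 7 and 35 (1 fit per day, adjusted p = 0.0564, 0.0656 and 0.0731), Osm on day 35 also when quantile normalized again or without moderation (adjusted p = 0.0529 and 0.0516), Il6ra on day 35 (1 fit per day and the mean of all probesets, adjusted p = 0.0645 and 0.102), Il6st on day 1 (all saline mice as control) and, without bleomycin replicate 3 of day 35, Lif, Osm and Il6ra on that day. Without that mouse the count of day 35 fell from 6 to 3. With the brightest probeset the count of day 21 rose from 5 to 8, and Il6st turned from differences of 0.03 and 0.09 that were not called to falls of -0.11 on day 21 and -0.10 on day 28. Of the pairs not called, 10 stayed uncalled under every alternative, and the rest were called under at least 1. Osm on day 21 was called under 9 of its 12 alternatives. With all saline mice as control, 6 pairs gained a call. Leaving out 1 bleomycin mouse at a time moved the count on day 28 between 2 and 5, on day 35 between 3 and 6, on day 21 between 4 and 7, on day 7 between 6 and 7, and left it at 5, 7 and 7 on days 1, 2 and 14. Without the 30% dimmest genes Il6, Il11 and Lifr were not tested, so those counts include 6 members. The count of members whose response differed among days was between 3 and 6, and 6 with array weights.

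For saline and bleomycin mice that carry the same replicate number, the correlation of their deviations was computed over 55 pairs. It ran from -0.328 to 0.408 (median 0.0601), and 23 exceeded 0.1. Pairs with different numbers were not compared, so a weak shared deviation cannot be told from none. With the replicate number as a block the counts on the 7 days were 5, 7, 7, 7, 5, 4 and 6, as without it, and the response differed among days for 3 members in place of 4, Lifr no longer passing.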
